A study of Mus musculus with 2 samples.

Results

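The chemokine system of sorted mouse lung cells was read from every array probe whose platform symbol starts with Ccl, Ccr, Cxcl or Cxcr and a digit, together with Xcl1, Cx3cl1, Pf4 and Ppbp. A further 2 receptor probes that match these letters are not described here. The rule gave 70 of the 25697 probes, which stand for 54 of 16590 named genes. Of these, 40 encode ligands and 14 encode receptors, and 12 genes had more than 1 probe. The rule itself reads symbols and no measured value.

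The cells came from BALB/c mice with an S100A4-GFP transgene and were sorted by flow cytometry as S100A4+ stromal cells. S100A4, which binds calcium, is made by fibroblasts but also by macrophages, lymphocytes and granulocytes, so that the reporter does not single out 1 cell type. The first group came from normal lung, and the other from the metastatic lung of transgenic mice that bore 4T1 tumours, mouse mammary carcinoma cells known to metastasize to lung. For each group there was 1 Illumina bead array of total RNA. The sources used here do not state the age of the mice or whether several were pooled. With 1 array per group no test was possible and array and condition cannot be told apart, so that every difference below is a description of this pair of arrays, without a replicate check.

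The labelled identity was checked first. S100a4, the gene of the reporter, had signals of 743 (normal) and 1122 (metastatic), a log2 ratio of 0.51. Among 11 fibroblast and mural cell markers, 8 were detected on at least 1 array, Inmt and Pdgfra on both, and Col1a1, Lum and Pdgfrb on neither. All 11 neutrophil markers and all 10 T and NK cell markers with a probe were detected on at least 1. For B cell markers this held for 3 of 5, and for platelet and megakaryocyte markers for 3 of 7, beside 8128 of all 16590 named genes. The RNA therefore held transcripts of several leukocyte types beside those of fibroblasts, and in such bulk RNA fewer cells of a type and less RNA per cell cannot be told apart. Summed over the list, neutrophil markers had signals of 5095 (normal) and 9690 (metastatic), and endothelial markers 3422 and 808, with Cdh5 detected on neither array. The corresponding sums were 1840 and 801 for T and NK cell markers, 4425 and 1851 for dendritic cell markers, and 2607 and 1038 for fibroblast and mural cell markers. Such sums add deposited signals with their background, also of undetected probes, and the brightest probes weigh most. Within the neutrophil sum, Mpo had signals of 67.2 and 2055, while S100a9 went the other way with 2522 and 1542.

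Chemokines are small secreted proteins that guide leukocytes along gradients held on the glycosaminoglycans of cells and matrix. They are named by the spacing of their first cysteines (CC, CXC, CX3C and XC) and act on G protein-coupled receptors of rhodopsin type, many of which bind several ligands. In the lung they govern the entry of neutrophils, monocytes and lymphocytes, and several are stored in platelets or made by the epithelium at rest.

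A probe was called detected at a detection p below 0.01, and for each gene the probe that was brightest on average was read. By this measure 34 of the 54 genes were detected on at least 1 array, beside 8128 of all 16590 named genes. Of the 34, 28 were detected on both, 5 on the normal-lung array only (10.1% of all detected genes were) and 1, Cxcl10, on the metastatic-lung array only (4.97% of all). Measured ratios reached 2-fold upward, toward the metastatic-lung cells, for 3 of the 34, Cxcl3, Cxcl2 and, by its measured ratio but not its bound, Cxcl10, which is 8.82% beside 5.89% of all 8128 detected genes. At least 2-fold lower values were measured for 12 of the 34, which is 35.3% beside 10.2% of all detected genes. A gene seen on 1 array passed the filter through the array on which it was high. Over the 28 members detected on both arrays, 2 were higher and 9 lower, where 5.07% and 7.02% of all 6904 such genes were. The median log2 ratio was -0.48 over the 34 members and -0.30 over the 28, against 0.01 and 0.05 over all genes detected in the same way. With genes of 1 array set to their bounds, as explained below, 2 members were higher and 10 lower by 2-fold or more, beside 5.09% and 8.16% of all detected genes.

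**Figure D1:**
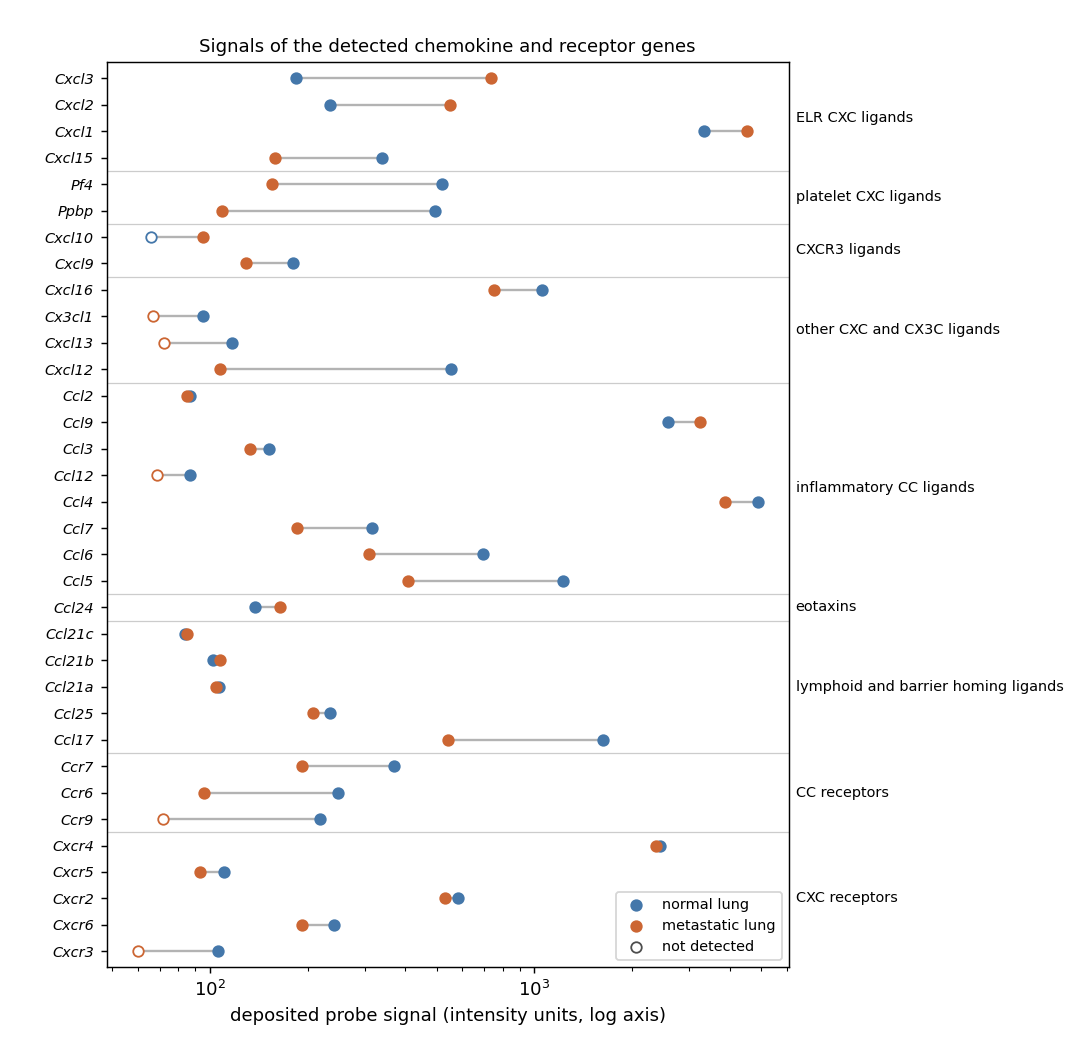
Deposited signal of the 34 detected chemokine and receptor genes on the normal-lung array (blue) and the metastatic-lung array (orange), on a log axis, with 1 probe per gene and open circles where that array did not detect it. Cxcl3 and Cxcl2 lie to the right in metastatic-lung cells, while Cxcl12, Ppbp, Pf4, Ccl17 and Ccl5 lie well to the left.

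As a measure of technical error, 1177 genes with exactly 2 probes detected on both arrays were compared. The log2 ratios of a gene's probes differed with an SD of 0.26 per probe, and 95% of the pairs differed by 0.72 or less. This spread leaves out the sort, the animals and the amplification. Ratios up to 0.72 either way are called within this spread below. That limit is for a difference between 2 probes and is wider than the SD of 0.26 per probe. A ratio within it is therefore not shown to be error alone. Signals below are given as deposited, and log2 ratios are those after background correction and normalization, always metastatic over normal lung. Each probe binds with its own strength, so that signals of different genes were not ranked against each other.

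The neutrophil-attracting CXC ligands carry a glutamate-leucine-arginine (ELR) motif before the first cysteine and signal mainly through Cxcr2. Of the 5 grouped here, Cxcl3 and Cxcl2 were higher, Cxcl1 was close to even, Cxcl15 was lower and Cxcl5 was detected on neither array. Ppbp, whose product also gives a neutrophil attractant, is described with Pf4 below and was lower (log2 ratio -2.69). Cxcl3 gave 185 intensity units in normal-lung cells and 736 in metastatic-lung cells, a log2 ratio of 2.25 (4.75-fold higher). Cxcl2, known as MIP-2 and made by activated macrophages and neutrophils, had signals of 235 and 550 (log2 ratio 1.37, 2.58-fold higher). Cxcl1, known as KC, had signals of 3334 and 4512, a log2 ratio of 0.29 that lies within the spread between probes. Cxcl15, or lungkine, an epithelial chemokine of the lung, went the other way with signals of 340 and 158 (log2 ratio -1.32, 2.50-fold lower). The epithelial and carcinoma markers had 6 of 8 genes detected, with summed signals of 6653 and 4154. Measured ratios were at least 2-fold lower for 2 of them, while Krt14 and Cldn4 were detected on neither array. Krt19, 1 of the 2, was detected in normal-lung cells only, at least 1.61-fold lower. Sftpc, the surfactant gene in that list, was 2.36-fold lower. The part of epithelial and carcinoma cells in the Cxcl15 value was not tested. The receptor gene Cxcr2 gave signals of 580 and 532 on 1 probe and 237 and 225 on the other, log2 ratios of -0.23 and -0.06. Cxcr2 thus differed by less than the spread between probes. It is itself 1 of the 11 neutrophil markers, of which 7 were at least 2-fold higher. Among them the granule gene Mpo was detected in metastatic-lung cells only (signals 67.2 and 2055), while Csf3r had a log2 ratio of 0.10 and S100a9 of -0.85.

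The 250 bases before the start sites of Cxcl3, Cxcl2 and Cxcl10 are shown because these genes had measured ratios past 2-fold (for Cxcl10 its bound did not reach 2-fold) and are textbook targets of NF-kB, and Cxcl10 also of interferon. They lie at chr5:90785851-90786100 (plus strand), chr5:90903649-90903898 (plus strand) and chr5:92348890-92349139 (minus strand), and are printed 5′ to 3′ on the gene's strand from RefSeq, build GRCm38.p6, which is C57BL/6J and not BALB/c sequence. Capitals mark matches on either strand to an NF-kB type motif (GGG, any 3 bases, TTCC) or an interferon response type motif (GAAA, any 2 bases, GAAA).
Cxcl3: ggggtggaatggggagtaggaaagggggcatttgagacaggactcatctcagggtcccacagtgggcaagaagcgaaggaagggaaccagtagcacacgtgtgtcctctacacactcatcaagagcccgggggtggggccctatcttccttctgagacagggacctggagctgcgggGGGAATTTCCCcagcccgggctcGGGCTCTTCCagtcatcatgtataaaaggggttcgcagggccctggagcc
Cxcl2: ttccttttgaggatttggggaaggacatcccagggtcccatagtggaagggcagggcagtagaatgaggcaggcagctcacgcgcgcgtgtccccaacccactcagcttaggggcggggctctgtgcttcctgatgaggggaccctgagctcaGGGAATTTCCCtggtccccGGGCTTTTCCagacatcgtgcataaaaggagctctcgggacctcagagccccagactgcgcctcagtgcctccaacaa
Cxcl10: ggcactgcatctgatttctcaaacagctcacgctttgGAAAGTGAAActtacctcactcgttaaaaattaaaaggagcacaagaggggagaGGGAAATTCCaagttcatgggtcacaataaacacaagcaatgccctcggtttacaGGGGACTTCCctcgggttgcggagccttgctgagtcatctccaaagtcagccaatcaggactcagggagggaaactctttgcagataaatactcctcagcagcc
In Cxcl3 the match GGGAATTTCC spanned bases 73 to 64 before the start, and the run of capitals there is 1 base longer because the motif also reads on the opposite strand, shifted by 1 base. A further match, GGGCTCTTCC, spanned bases 50 to 41. Cxcl2 held the same GGGAATTTCC at bases 97 to 88, again overlapping a match on the opposite strand, and GGGCTTTTCC at 78 to 69. In Cxcl10 the matches were GGGAAATTCC (bases 159 to 150), GGGGACTTCC (104 to 95) and, for the interferon type, GAAAGTGAAA (213 to 204). Promoter entries were found for 39 of the 54 genes, with 43 start sites, of which 8 (18.6%) held the NF-kB type motif, beside 4.65% of 32851 promoters in all. The interferon type was held by 3 (6.98%), beside 2.98% of all. A match did not go with a higher value throughout: Cxcl1 and Ccl9, both with the NF-kB type, had log2 ratios of 0.29 and 0.18, Ccr6 with the same motif had -1.80, and Ccl1 and Ccl20 were detected on neither array. Of the other genes with the interferon type, Ccl19 and Cxcl14 were detected on neither array.

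Pf4 and Ppbp, the chemokines stored in platelet granules, were lower in the metastatic-lung cells. Pf4 (platelet factor 4) gave signals of 520 (normal) and 155 (metastatic; log2 ratio -2.06, 4.17-fold lower). Ppbp, whose product is cut to the neutrophil attractant NAP-2, had signals of 495 and 109 (log2 ratio -2.69, 6.47-fold lower). A second Ppbp probe was detected on the normal-lung array only, with signals of 90.5 and 50.2, and the mean of both probes gave a log2 ratio of -1.93. Of 7 platelet and megakaryocyte markers without chemokine function that had a probe, 3 were detected, all with ratios below 0 (median log2 ratio -1.04). By measured ratio 2 of the 3, Gp5 and Treml1, were at least 2-fold lower. Gp5 had signals of 127 and 68.9 and Treml1 of 92.3 and 57.4. Both were detected in normal-lung cells only, at least 1.9955-fold and 1.16-fold lower. Gp9, which is detected on both arrays, had signals of 675 and 644 (log2 ratio -0.19). Itga2b, Gp1bb, Tubb1 and Clec1b were detected on neither array. The list's summed signal was 1183 and 1028, most of it from Gp9. The part of platelets in the Pf4 and Ppbp values was not tested. The sequences before the start sites of Ppbp and Pf4 lie at chr5:90768268-90768517 (plus strand) and chr5:90772185-90772434 (plus strand). They are shown because these genes had the lowest log2 ratios of the detected ligands after Cxcl12. Both genes also lie in 1 cluster with Cxcl3, which differed in the opposite direction. The Cxcl12 window is not printed and held neither motif.
Ppbp: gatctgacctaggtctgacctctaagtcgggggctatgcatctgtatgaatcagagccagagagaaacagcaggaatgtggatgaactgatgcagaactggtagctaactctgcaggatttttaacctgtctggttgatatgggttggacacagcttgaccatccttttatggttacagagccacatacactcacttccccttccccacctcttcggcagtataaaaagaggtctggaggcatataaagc
Pf4: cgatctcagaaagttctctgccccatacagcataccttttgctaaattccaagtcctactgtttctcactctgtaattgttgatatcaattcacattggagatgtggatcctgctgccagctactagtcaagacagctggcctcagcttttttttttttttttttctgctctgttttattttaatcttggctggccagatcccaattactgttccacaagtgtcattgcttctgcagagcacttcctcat
Neither window held either motif, which says only that these letters are not in it.

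In the order of the RefSeq assembly, 7 members lie beside each other on chromosome 5 with no other protein-coding gene between them: Cxcl5, Ppbp, Pf4, Cxcl3, Cxcl15, Cxcl1 and Cxcl2. Pf4 and Cxcl3, which are direct neighbours, had log2 ratios of -2.06 and 2.25, and Cxcl15, between Cxcl3 and Cxcl1, had -1.32. The CC ligands on chromosome 11 form a run of 6 genes from Ccl2 to Ccl1 and a run of 5 from Ccl5 to Ccl4. In the latter Ccl9, with a log2 ratio of 0.18, lies between Ccl5 at -1.76 and Ccl6 at -1.35. Position in a cluster therefore did not go with 1 direction, an arrangement looked at after the values were seen.

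**Figure D2:**
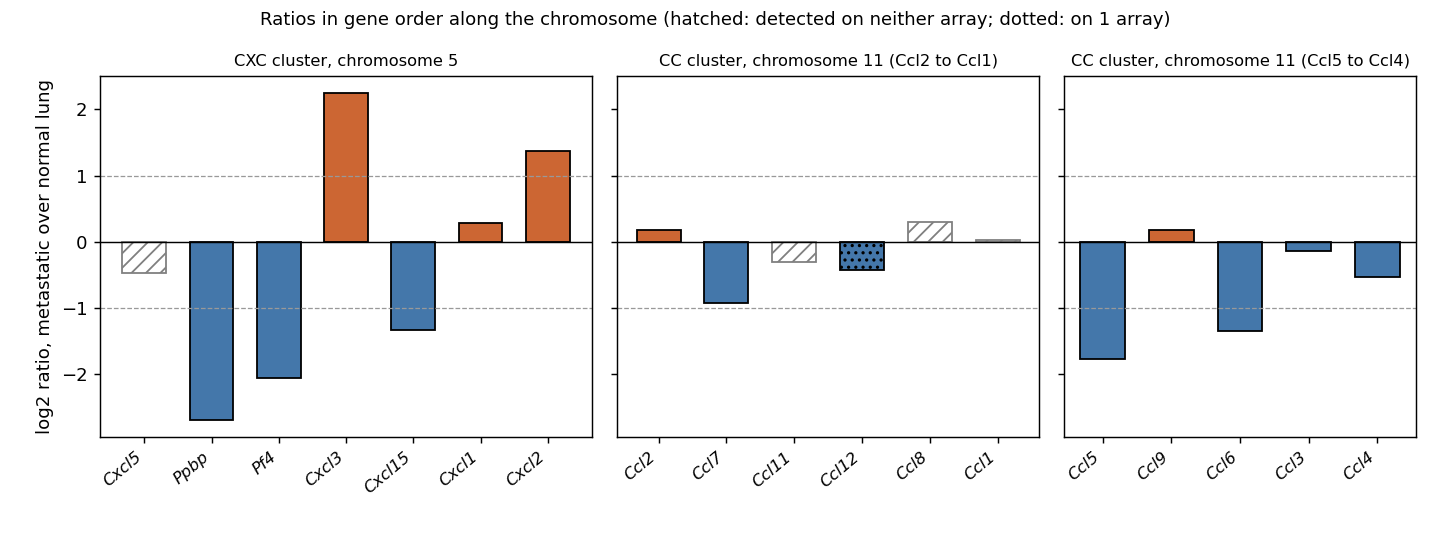
Log2 ratio (metastatic over normal lung) of the chemokine genes in gene order within the clusters of chromosomes 5 and 11. Bars above 0 are orange and below 0 blue, hatched bars were detected on neither array and the dotted bar on 1, and dashed lines mark 2-fold; neighbours such as Pf4 (-2.06) and Cxcl3 (2.25) differ in sign.

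The CXCR3 ligands, induced by interferon and drawing T and NK cells, had 2 of 3 genes detected. Cxcl10 had a signal of 65.9 in normal-lung cells, where it was not detected (detection p 0.112), and 95.1 in metastatic-lung cells. Because the normal-lung value is only an upper limit, its difference is given as a bound, with the dim value raised to the lowest detected value of that array: Cxcl10 was at least 1.54-fold higher. Its measured log2 ratio of 1.22 was 0.62 in the authors' processed values, below 2-fold. Cxcl9 had signals of 180 and 129 (log2 ratio -0.54), opposite in sign and within the spread between probes, and Cxcl11 was detected on neither array. Cxcr3, the receptor, had signals of 106 and 59.9 and was detected in normal-lung cells only, at least 1.496-fold lower in metastatic-lung cells. Its measured log2 ratio of -1.32 was -0.46 in the authors' processed values. Ifng, an inducer of these ligands, was likewise detected in normal-lung cells only, with signals of 112 and 65.5 (at least 1.65-fold lower).

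Cxcl12, the stromal ligand of Cxcr4 that holds progenitors and leukocytes in bone marrow and other tissues, had the lowest log2 ratio of the detected members. The signals were 554 (normal) and 107 (metastatic), a log2 ratio of -2.93 (7.60-fold lower) that was -2.17 in the authors' processed values. The other 4 Cxcl12 probes were detected on neither array, with signals of 55.3 to 68.0 in normal-lung and 49.98 to 56.3 in metastatic-lung cells, so the difference rests on 1 probe. The sources used here do not state which transcript isoform each probe reads. Its receptor gene Cxcr4 was detected with signals of 2446 and 2370, a log2 ratio of -0.15. Cxcl12 is known from fibroblasts and endothelium, and both lists were lower on the same arrays: Pdgfra was 5.21-fold and Tek 8.31-fold lower. In each list 7 of 8 detected genes were at least 2-fold lower by measured ratio. Among the fibroblast and mural cell markers, Dcn was detected in normal-lung cells only, at least 1.75-fold lower. The part of fibroblasts and endothelium in the Cxcl12 value was not tested.

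Cxcl13, the ligand of Cxcr5 that organizes B cell follicles, had signals of 117 and 72.4 and was detected in normal-lung cells only, at least 1.77-fold lower. Its measured log2 ratio of -1.04 lay just past 2-fold and was -0.41 in the authors' processed values. Cxcr5 itself had signals of 110 and 93.1 (log2 ratio -0.22), and its other probes were detected on neither array. Cxcl16, a membrane-bound ligand and scavenger receptor, had signals of 1058 and 750 (log2 ratio -0.64), and its receptor Cxcr6 had 241 and 192 (log2 ratio -0.37). Both lay within the spread between probes. Cx3cl1, or fractalkine, which endothelium displays to monocytes, was detected in normal-lung cells only (signals 95.4 and 66.8, at least 1.23-fold lower). Its receptor Cx3cr1, which marks patrolling monocytes, was 4.44-fold lower with signals of 378 and 114.

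**Figure D3:**
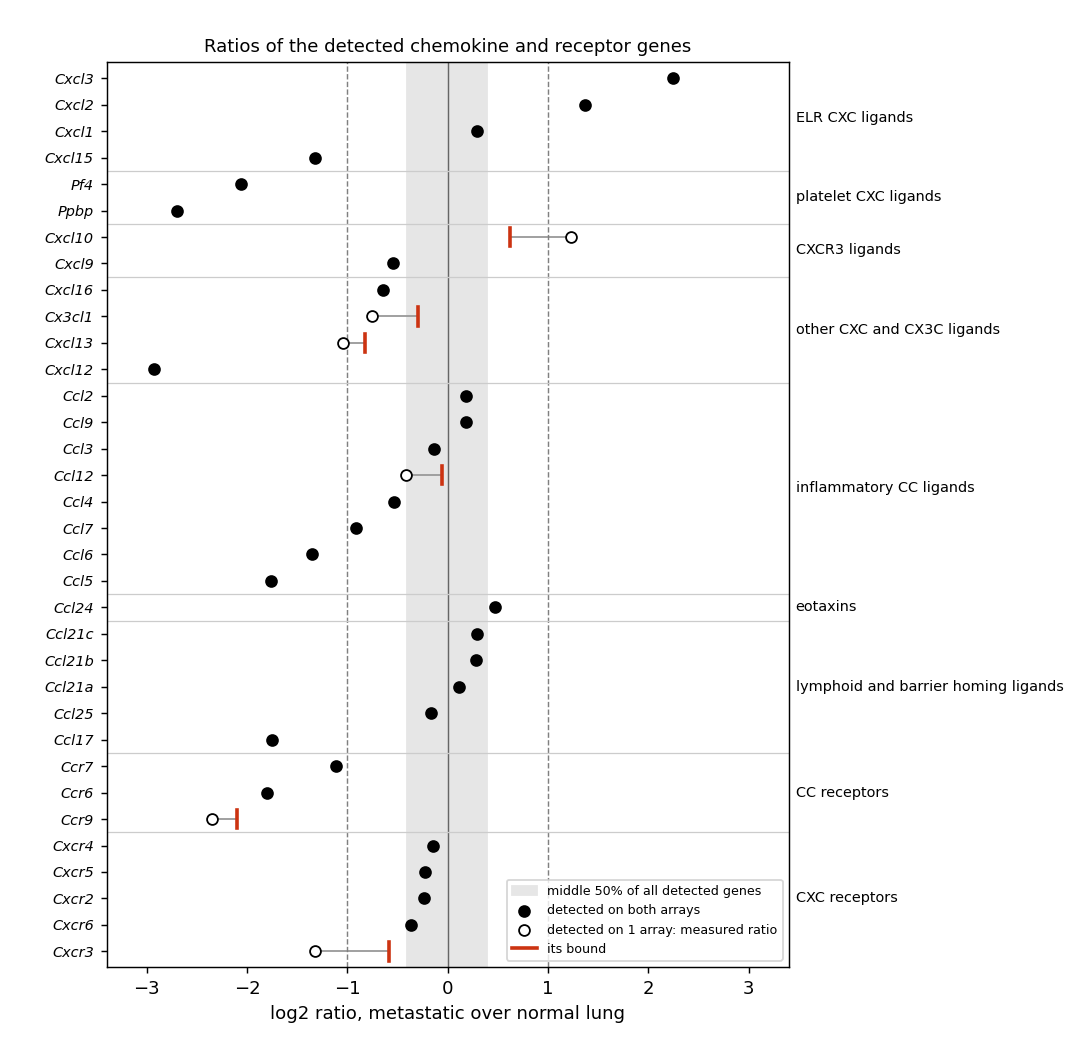
Log2 ratio (metastatic over normal lung) of the 34 detected chemokine and receptor genes by role. Filled circles were detected on both arrays, open circles on 1, with the bound as a red tick; the grey band holds the middle 50% of all detected genes (-0.40 to 0.39) and the dashed lines mark 2-fold. The lowest is Cxcl12 at -2.93, and the highest Cxcl3 at 2.25.

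The inflammatory CC ligands, which recruit monocytes and T cells, had 8 of 9 genes detected. Of the 8, 2 were at least 2-fold lower and none at least 2-fold higher, beside 10.2% and 5.89% of all detected genes. Among 8 genes, none higher is near the share of all genes. Ccl5 (RANTES), made by T and NK cells among others, had signals of 1222 and 409 (log2 ratio -1.76, 3.39-fold lower). Ccl6, a myeloid chemokine of rodents, had signals of 693 and 309 (log2 ratio -1.35, 2.55-fold lower). Both genes were dimmer in metastatic-lung cells, beyond the spread between probes. Of the T and NK cell markers, 6 of 10 were at least 2-fold lower by measured ratio, Cd3d by 4.82-fold. Ncr1, 1 of the 6, was detected in normal-lung cells only, at least 1.22-fold lower. Of the monocyte and macrophage markers, all 7 with a probe were detected, with summed signals of 11412 and 6456, and 3 were at least 2-fold lower, Mrc1 by 3.46-fold. The part of these cells in the Ccl5 and Ccl6 values was not tested. Ccl7, or MCP-3, stood just short of 2-fold with signals of 316 and 185 (log2 ratio -0.92). Ccl9, which is closely related to Ccl6 and also of myeloid cells, had signals of 2581 and 3233 (log2 ratio 0.18). This difference for Ccl9 was smaller than that between probes of 1 gene.

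Ccl3 and Ccl4, the macrophage inflammatory proteins 1-alpha and 1-beta, lay within the spread between probes. Ccl3 had signals of 152 and 133 (log2 ratio -0.13). Ccl4 had signals of 4882 and 3873 (log2 ratio -0.53), and its other probe was detected on neither array. Ccl2, or MCP-1, the main attractant of classical monocytes, was barely above background with signals of 86.9 and 84.9 (log2 ratio 0.18). Its close relative Ccl12 was detected in normal-lung cells only, with signals of 87.1 and 68.9 and a bound of at least 1.04-fold lower. Ccl8 was detected on neither array.

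Of the eotaxins, which attract eosinophils, Ccl24 alone was detected, with signals of 138 and 165 (log2 ratio 0.47, within the spread between probes), while Ccl11 and Ccl26 were not. Markers of mast cells, basophils and eosinophils went both ways: the granule gene Prg2 was at least 11.3-fold higher and Siglecf 3.08-fold lower.

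Ligands of lymphoid and barrier tissues had 5 of 12 genes detected, and Ccl17 was the member among them past 2-fold. Ccl17 (TARC), a ligand of Ccr4 made by dendritic cells, had signals of 1628 and 544 (log2 ratio -1.75, 3.37-fold lower). Its fellow Ccr4 ligand Ccl22, which lies beyond Cx3cl1 in the same gene cluster, was detected on neither array, and nor was Ccr4. On the same arrays 7 of 8 dendritic cell markers were detected, 4 of them at least 2-fold lower (Itgax by 4.16-fold), and Xcr1 was detected on neither. The part of dendritic cells in the Ccl17 value was not tested. Ccl21a, Ccl21b and Ccl21c, near-identical copies of the lymphoid ligand of Ccr7 whose probes may share transcripts, differed little between the arrays. Ccl21a had signals of 106 and 104 (log2 ratio 0.12), Ccl21b of 102 and 107 (0.28) and Ccl21c of 84.0 and 85.2 (0.30). Ccl25, the ligand of Ccr9 known from thymus and gut, had signals of 234 and 208 (log2 ratio -0.17) on 1 probe and was not detected by the other.

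Of the 8 detected receptor genes, 4 were at least 2-fold lower by their measured ratio and 3 with bounds, where 10.2% and 8.16% of all detected genes were. Ccr9 and Cxcr3 passed the filter through the normal-lung array only, on which they were high. Ccr9, which guides lymphocytes to gut and thymus, had signals of 219 and 71.7 and was detected in normal-lung cells only (at least 4.30-fold lower; measured log2 ratio -2.35, and -1.28 in the authors' processed values). Ccr6, the receptor for Ccl20 found on B cells, dendritic cells and some T cells, had signals of 249 and 96.2 (log2 ratio -1.80, 3.48-fold lower). The other Ccr6 probe was dim, with signals of 86.9 and 63.3 and detection in normal-lung cells only. The log2 ratio was -1.23 for the mean of both Ccr6 probes and -1.16 in the authors' processed values. Ccr7, which brings dendritic cells and naive T cells to lymph nodes, had signals of 369 and 192 (log2 ratio -1.11, 2.16-fold lower). In the authors' processed values it was -0.93, short of 2-fold. The lymphocyte receptors Cxcr5 and Cxcr6 and the more widely carried Cxcr2 and Cxcr4 differed by no more than probes of 1 gene do. B cell markers had 3 of 5 genes detected, all 3 at least 2-fold lower by measured ratio (Cd79b by 3.76-fold), with Cd79a and Ms4a1 on neither array. Cd22 and Blk were detected in normal-lung cells only, at least 1.84-fold and 1.75-fold lower. The parts of T, B and dendritic cells in these receptor values were not tested.

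Detected on neither array were 20 members: Ccl1, Ccl8, Ccl11, Ccl19, Ccl20, Ccl22, Ccl26, Ccl27a, Ccl28, Cxcl5, Cxcl11, Cxcl14, Cxcl17, Xcl1, Ccr1, Ccr1l1, Ccr4, Ccr8, Ccr10 and Cxcr1. Their signals ran from 46.9 to 80.4 and their detection p from 0.0125 to 0.986, so that no fold is given. For 5 of them, Ccl11, Ccl19, Cxcl5, Cxcl14 and Xcl1, the detection p was below 0.05 on at least 1 array. Ccr1, a receptor of neutrophils and monocytes, had signals of 47.4 and 55.0 on its single probe.

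Around the chemokines, 4 further lists of the pathway were read, and of 66 detected genes 11 were higher and 6 lower by 2-fold or more, where 5.89% and 10.2% of all detected genes were, so that the lower count is near the share of all genes. Among atypical and related chemoattractant receptors, 6 of 11 were detected and 2 were lower: Cx3cr1, given above, and Ackr2, a decoy that removes inflammatory CC chemokines (signals 173 and 66.0, at least 3.13-fold lower). Ccrl2, which presents the attractant chemerin, had a log2 ratio of -0.78, and Fpr2, a formyl peptide receptor, of -0.50. The signalling machinery below the receptors stayed within 2-fold for all 26 detected genes of 27. Its lowest measured log2 ratios were those of Rgs18, a regulator of G protein signalling in platelets and myeloid cells (-0.81), and Arrb1, which encodes beta-arrestin 1 (-0.74). The highest were those of Pik3r5 and Rgs16 (0.87 and 0.86). Each of these was detected in metastatic-lung cells only, at least 1.09-fold and 1.25-fold higher.

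Of 15 detected proteases and glycosaminoglycan partners, which trim or bind chemokines, 5 were higher and 3 lower by measured ratio, where 5.89% and 10.2% of all detected genes were. Of the 5, Ctsg, Prtn3, Elane and Adam8 passed the filter through the metastatic-lung array only, on which they were high. Of the 3, Mmp14 was detected in normal-lung cells only, at least 1.77-fold lower. Those higher included the neutrophil enzymes Ctsg (at least 17.3-fold), Prtn3 (at least 4.16-fold) and Mmp8 (4.64-fold, signals 117 and 383). The macrophage elastase Mmp12, which cleaves ELR chemokines, was 4.69-fold lower with signals of 3604 and 864. Among 19 detected inducers and regulators of chemokine genes, 6 were higher and 1, Ifng, was lower by measured ratio, where 5.89% and 10.2% of all detected genes were. The lower count is near the share of all genes. Relb, 1 of the 6, was detected in metastatic-lung cells only, at least 1.55-fold higher. This list also holds genes that restrain chemokine expression, and Il10 and Nfkbia are among the 6 higher. Il10 had a log2 ratio of 1.80, Il6 of 1.70 and the hypoxia factor gene Hif1a of 1.57.

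**Figure D4:**
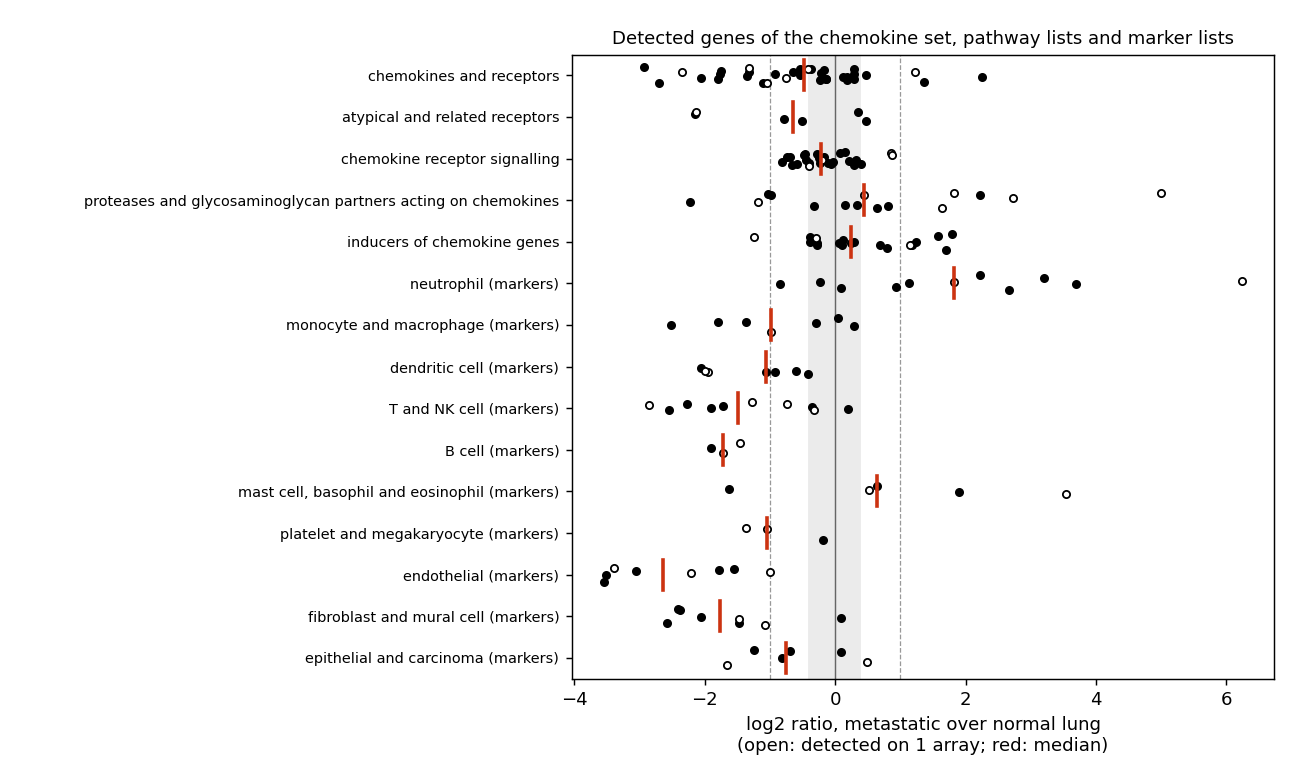
Log2 ratio (metastatic over normal lung) of each detected gene in the chemokine set, in the 4 pathway lists and in the lists of cell type markers, where open points were detected on 1 array and red ticks are medians. The grey band holds the middle 50% of all detected genes and dashed lines mark 2-fold; the chemokine set has its median at -0.48, the neutrophil markers at 1.82 and the endothelial markers at -2.63.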

How the data were processed

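The authors deposited a non-normalized table with an intensity and a detection p-value for each probe and array, named so per the file headers, and a table of processed intensity values. The submitters' processing notes name BeadStudio, with no version. Per the labels RNA was amplified and biotin-labelled with a NuGEN WT-Ovation Pico kit. The processed values were a straight-line rescaling of the same arrays, with slopes of 1.08 and 0.942 and added constants of 9.31 and 33.8 (normal, metastatic) and medians of 87.2 and 96.0. The method behind them is unknown and they served as an alternative.

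Deposited intensities were corrected by neqc in limma 3.58.1 (R 4.3.3), with background estimated from the detection p-values and an offset of 16. Quantile normalization between arrays and log2 followed. The offset understates ratios of dim genes. Median signals were 72.2 and 66.1, and 42.6% and 40.9% of probes were detected; the number of arrays limits precision. The steps were tested on simulated arrays. Further steps used numpy 2.4.6, pandas 2.3.3 and matplotlib 3.10.9 under Python 3.11.15.

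Probes were named from the platform annotation of 2016. Of these, 23962 were updated by gene identifier to RefSeq of GRCm38.p6 and 9 by accession. The platform symbol was kept for 7, and 1719 are unnamed here. No member symbol changed. A gene counted as higher or lower at 2-fold if detected on its brighter array. Bounds raised the dim value to the lowest detected one, log2 5.25 for normal and 5.36 for metastatic lung. Every member detected on at least 1 array was named with both signals, and up to 4 genes of each pathway list with the largest ratios. Protein sequences were not used here. Members, lists and alternatives were chosen with earlier results of these data known.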

Additional observations from a re-analysis of the deposited data

How the results depend on the processing

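Under 8 alternatives (an offset of 50, no background correction, median scaling, the authors' processed values, a detection p of 0.05, detection on both arrays, no detection filter, and the mean of detected probes), all 15 members past 2-fold kept their sign wherever they had a value, and 11 stayed past 2-fold (2 higher, 9 lower). The exceptions were Ccr7, Cxcl10, Cxcl13 and Cxcr3. Settings that changed only the detection rule left each log2 ratio as it was, so they could not change a sign or size. The mean of detected probes changed the ratio of Ccr6, Cxcr2 and Ppbp alone among the detected members. The remaining settings reprocess the same 2 arrays. The members' median was -0.18 with no detection filter. Pathway genes counted as higher, 11 in the report, were 7 with no background correction and 6 with the authors' processed values or detection on both arrays. Those counted as lower, 6 in the report, were 3 with an offset of 50, no background correction or detection on both arrays. Over all detected genes, 479 were higher and 826 lower, against 239 and 513 with an offset of 50, 210 and 492 with no background correction, 159 and 422 in the authors' processed values, and 350 and 485 with detection on both arrays. These settings keep a constant in the signals or test fewer genes. No paired analysis was possible because each group had 1 array. Members detected on 1 array have bounds only, and those on neither have no ratio.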
